A study of Homo sapiens with 8 samples.

Results

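ACBI-1 was compared with its solvent DMSO in MOLT-4, an established line of human T-cell acute lymphoblastic leukaemia, by RNA sequencing of 4 libraries out of the 8 in the study. Each group held 2 libraries. The treated cells received ACBI-1 at 100 nM and the controls DMSO, and total RNA was taken after 24 h from cells grown in RPMI-1640 medium with fetal bovine serum and antibiotics. ACBI-1 is a PROTAC, a small molecule that links the bromodomains of SMARCA2, SMARCA4 and PBRM1 to the ubiquitin ligase VHL, so that these proteins are degraded. The other 4 libraries are of DND-41, a second line of the same leukaemia, under the same treatments, and they are used here only for the levels of some genes. The labels do not say whether replicates were separate cultures, so p-values here reflect the spread of these libraries alone, and that spread may be technical. MOLT-4 is 1 cell line, and no other line stands beside it in the tests.

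SWI/SNF complexes use ATP to slide or evict nucleosomes, which opens enhancers and promoters to transcription factors. SMARCA4 and SMARCA2 are alternative ATPase engines of these complexes, and PBRM1 is a subunit of the form named PBAF. In blood cells and leukaemias such complexes help to keep enhancers of lineage genes open.

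The 4 libraries held 21585964 to 22067644 counts, and 14618 of the 63677 genes in the table passed the low-count filter and were tested. Levels are given as CPM, counts relative to the library total after TMM scaling, and a call is an adjusted p under 0.05 in edgeR's quasi-likelihood test with Benjamini-Hochberg adjustment over all 14618 genes. The 2 DMSO libraries differed by 1.52 and the 2 ACBI-1 libraries by 2.65 times the counting noise (chi-square per degree of freedom), against 49.4 to 50.8 for pairs across the groups. All 13 T-lineage markers were expressed, with a summed level of 7384 and 7372 CPM with DMSO and 3484 and 3371 CPM with ACBI-1. Without TRBC2, a T-cell receptor constant segment, the other 12 summed to 3455 and 3494 CPM with DMSO and 3014 and 2925 CPM with ACBI-1. Of all 13 markers 9 were called lower, beside 30.2% of all genes tested, and 5 of them at least 2-fold, beside 4.82%. These 5 were TRBC2 (log2 fold change -3.09), CD7 (-2.63), CD2 (-1.92), PTCRA (-1.80) and ZAP70 (-1.09). CD3G (0.64) and LCK (0.24) were called higher, and CD3E and RAG1 were not called. Markers of myeloid cells summed to under 1 CPM in every library, and SPI1, ELANE, MS4A1, PAX5, EPCAM and PF4 had no count in any. Of 8 B-lineage markers 3 were tested and 2 called lower. BLK went from 105.3 and 104.7 to 74.4 and 76.7 CPM and CD79A from 4.37 and 4.37 to 0.491 and 0.266 CPM. Of 8 stem and progenitor markers 6 were tested and 4 called lower, with CD34 from 10.6 and 9.78 to 3.48 and 2.70 CPM. COL1A1 stood apart in ACBI-1 replicate 2, at 13.8 CPM against 0.491 CPM in ACBI-1 replicate 1 and 0.380 and 1.09 CPM with DMSO. It was the only gene tested that differed 4-fold between replicates at 2 CPM or more, and its call as higher (log2 fold change 3.27, adjusted p = 1.07e-05 by edgeR) turned to -0.58 without that library. COL1A2 and COL3A1 were likewise seen mainly in that library, and the summed level of the 7 fibroblast markers was 30.6 CPM there against 2.23 to 3.35 CPM in the others. Without that library, 266 of 276 genes chosen for naming kept direction and call. In bulk RNA, fewer cells of a kind and less RNA per cell cannot be told apart.

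The transcripts of the degraded proteins were measured first. SMARCA4 stood at 602 and 580.1 CPM with DMSO and 725 and 689 CPM with ACBI-1 (log2 fold change 0.26, SE 0.0355, adjusted p = 3.09e-08 by edgeR). PBRM1 was at 222 and 218 CPM with DMSO and 237 and 239 CPM with ACBI-1. Its call (log2 fold change 0.11, adjusted p = 0.00736 by edgeR) was lost without DMSO replicate 1 (0.0701) or DMSO replicate 2 (0.159). SMARCA2, at 27.9 and 25.9 CPM with DMSO and 25.3 and 26.1 CPM with ACBI-1, was not called (log2 fold change -0.065, adjusted p = 0.439 by edgeR). ACBI-1 acts on protein, which was not measured, so transcript levels do not check the labels.

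The response was broad, and its 2 directions differed in where the genes started. Of the 14618 genes tested, 8533 (58.4%) were called, 4120 (28.2%) higher and 4413 (30.2%) lower with ACBI-1. With total counts as the scale, every log2 fold change was 0.12 higher than with TMM, and the calls then split into 5804 higher and 3031 lower. At least 2-fold changes were called in 880 genes higher (6.02%) and 705 lower (4.82%), and at least 4-fold changes in 179 higher (1.22%) and 232 lower (1.59%). Among the 8888 genes over 10 CPM in both DMSO libraries, 92 were called at least 2-fold higher and 279 at least 2-fold lower. At 4-fold the same genes gave 3 higher and 82 lower. Among the 3117 genes under 2 CPM in both DMSO libraries the numbers were 589 higher and 201 lower at 2-fold. The low-count filter bears on that last count, since 903 of the 3117 genes had passed it only through the ACBI-1 libraries. Of the 2214 others, 252 were called at least 2-fold higher and 201 at least 2-fold lower.

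By share of the libraries, the genes that fell carried more RNA than those that rose. The 705 genes called at least 2-fold lower held 3.76% and 3.75% of counts with DMSO and 1.38% and 1.36% with ACBI-1. The 880 called at least 2-fold higher went from 0.389% and 0.391% to 1.13% and 1.124%. The 32 mitochondrially encoded genes held 8.87% to 9.68% in all 4 libraries. The same direction was given by the authors' deposited table for 100% of the genes called here, and that table called 5692 genes, 2389 higher and 3303 lower. It covers the same comparison, so its signs are no independent check.

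**Figure D1:**
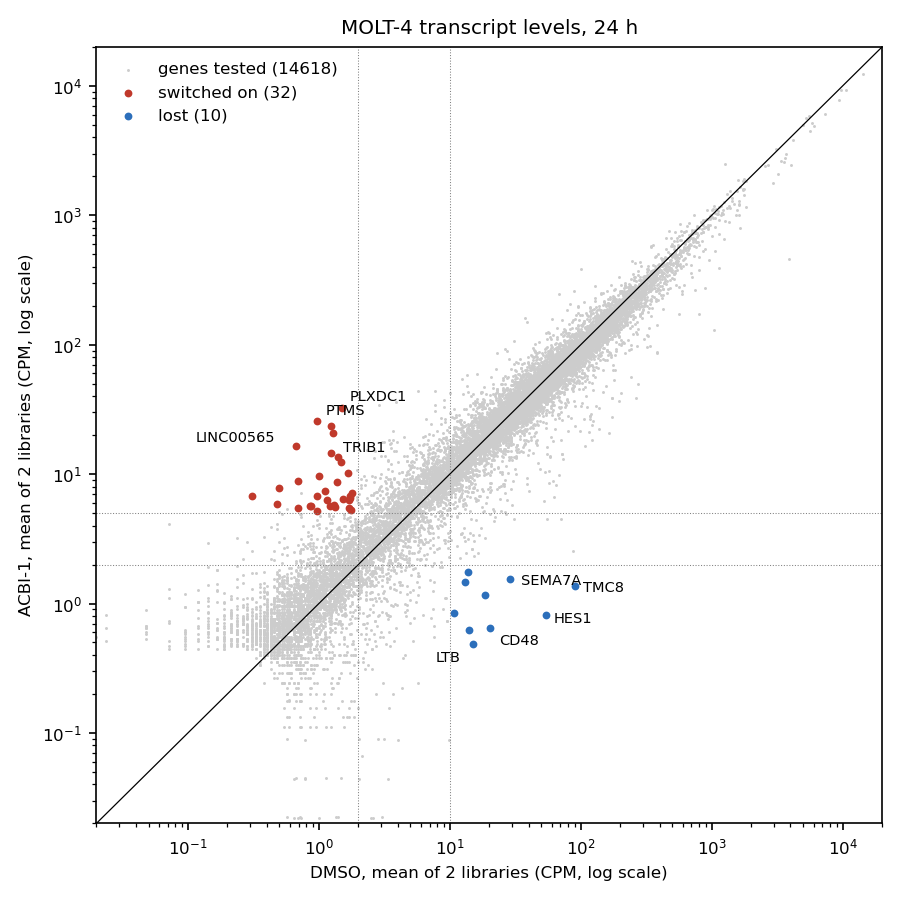
Mean level of each of the 14618 genes tested with DMSO (horizontal axis) and ACBI-1 (vertical axis), in CPM on log scales, each the mean of 2 libraries, with means below the axis drawn at its edge. Dotted lines mark the limits of 2, 5 and 10 CPM that define the switched-on genes (red, 32) and the lost genes (blue, 10), and the solid line marks equal levels.

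Genes switched on were defined as called higher, under 2 CPM in both DMSO libraries and over 5 CPM in both ACBI-1 libraries. The rule found 32 genes, 0.219% of those tested, of which 29 code for protein and 3 are long non-coding RNAs. They include adhesion and cytoskeletal regulators, surface and secreted proteins, and proteins of vesicles and synapses, with means of 0.309 to 1.80 CPM with DMSO and 5.18 to 32.7 CPM with ACBI-1. Their log2 fold changes ranged from 1.59 to 4.71 with adjusted p-values up to 9.77e-10 (edgeR). Since the levels chose them, these values describe the genes and support nothing further. Of the 32, 29 had passed the low-count filter on their DMSO libraries and 3 only through ACBI-1.

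Regulators of adhesion and of the actin cytoskeleton were the first set. PTK2, the focal adhesion kinase, which relays signals from integrins, stood at 0.950 and 1.52 CPM with DMSO and 25.1 and 22.2 CPM with ACBI-1. The log2 fold change of PTK2 was 4.25 (SE 0.148). ZYX encodes zyxin, a protein of focal adhesions and stress fibres. It was at 1.28 and 1.04 CPM with DMSO and 6.96 and 5.67 CPM with ACBI-1, a log2 fold change of 2.43. ARHGEF12, an exchange factor that activates RHOA downstream of G-protein-coupled receptors, measured 0.522 and 0.427 CPM with DMSO and 5.62 and 6.20 CPM with ACBI-1 (log2 fold change 3.62). CDC42BPG, a kinase that acts downstream of CDC42, was at 1.61 and 1.85 CPM with DMSO and 6.42 and 6.60 CPM with ACBI-1. EPN2, an epsin that binds clathrin coats, was at 1.61 and 1.19 CPM with DMSO and 15.3 and 11.9 CPM with ACBI-1. PTPRJ, a receptor tyrosine phosphatase, had the smallest change of the set, from 1.76 and 1.76 to 5.26 and 5.32 CPM (log2 fold change 1.59).

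Surface and secreted proteins formed the next set. PLXDC1, a membrane protein first described on tumour endothelium, stood at 1.76 and 1.23 CPM with DMSO and 32.8 and 32.6 CPM with ACBI-1 (log2 fold change 4.44, SE 0.126). NOG encodes noggin, which binds BMPs and keeps them from their receptors, and it measured 0.665 and 0.712 CPM with DMSO and 9.10 and 8.46 CPM with ACBI-1. That the groups did not overlap follows from the limits that chose these genes. LRP1, a large endocytic receptor, was at 1.85 and 1.09 CPM with DMSO and 12.5 and 12.2 CPM with ACBI-1. HFE, an MHC class I-like protein that controls iron uptake, went from 0.902 and 1.04 to 7.36 and 6.16 CPM. C5, a complement component, went from 0.665 and 1.04 to 5.84 and 5.40 CPM, and ADAMTS19, a secreted metalloprotease, from 1.23 and 1.80 to 6.51 and 6.25 CPM. GPLD1, a phospholipase that cuts GPI anchors, was at 1.71 and 1.66 CPM with DMSO and 6.60 and 6.07 CPM with ACBI-1.

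Signalling genes included TRIB1, a pseudokinase that brings substrates to the ubiquitin ligase COP1, at 1.47 and 1.09 CPM with DMSO and 20.8 and 20.7 CPM with ACBI-1 (log2 fold change 4.01, SE 0.145). DAB1, the adaptor of the reelin pathway in neurons, stood at 1.61 and 0.855 CPM with DMSO and 16.0 and 13.4 CPM with ACBI-1. ADCY1, an adenylyl cyclase stimulated by calcium and calmodulin, was at 0.617 and 0.760 CPM with DMSO and 5.35 and 5.58 CPM with ACBI-1. Other genes of the set are best known from secretory vesicles or synapses. HID1, needed for dense-core granules, was at 0.427 and 0.570 CPM with DMSO and 8.21 and 7.40 CPM with ACBI-1 (log2 fold change 3.95), and PRRT2, a presynaptic protein that binds SNAREs, at 0.190 and 0.427 CPM with DMSO and 6.78 and 6.78 CPM with ACBI-1. PPFIA4, a liprin of the presynaptic active zone, measured 1.19 and 1.23 CPM with DMSO and 5.04 and 6.34 CPM with ACBI-1. KHDRBS3, an RNA-binding protein that regulates splicing, went from 1.85 and 1.57 to 5.57 and 5.45 CPM.

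PTMS, which encodes the acidic protein parathymosin, had the largest log2 fold change of the 32 (4.71, SE 0.147), at 1.04 and 0.902 CPM with DMSO and 26.8 and 24.2 CPM with ACBI-1. Among the non-coding RNAs, LINC00565 stood at 0.807 and 0.522 CPM with DMSO and 17.3 and 15.8 CPM with ACBI-1 (log2 fold change 4.62), and BAIAP2-AS1 at 1.09 and 0.902 CPM with DMSO and 9.95 and 9.48 CPM with ACBI-1. RP11-356J5.12 went from 1.23 and 1.38 to 5.62 and 5.94 CPM. CEP112, a centrosomal protein, reached 10.4 and 10.1 CPM, and CAPS2 7.94 and 9.53 CPM. TTC7B, part of the complex that places a phosphatidylinositol 4-kinase at the plasma membrane, reached 7.89 and 6.91 CPM. The others, CIB2, SELM, FAM151B, GRAMD1C and RNF215, had means of 5.18 to 7.09 CPM with ACBI-1.

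**Figure D2:**
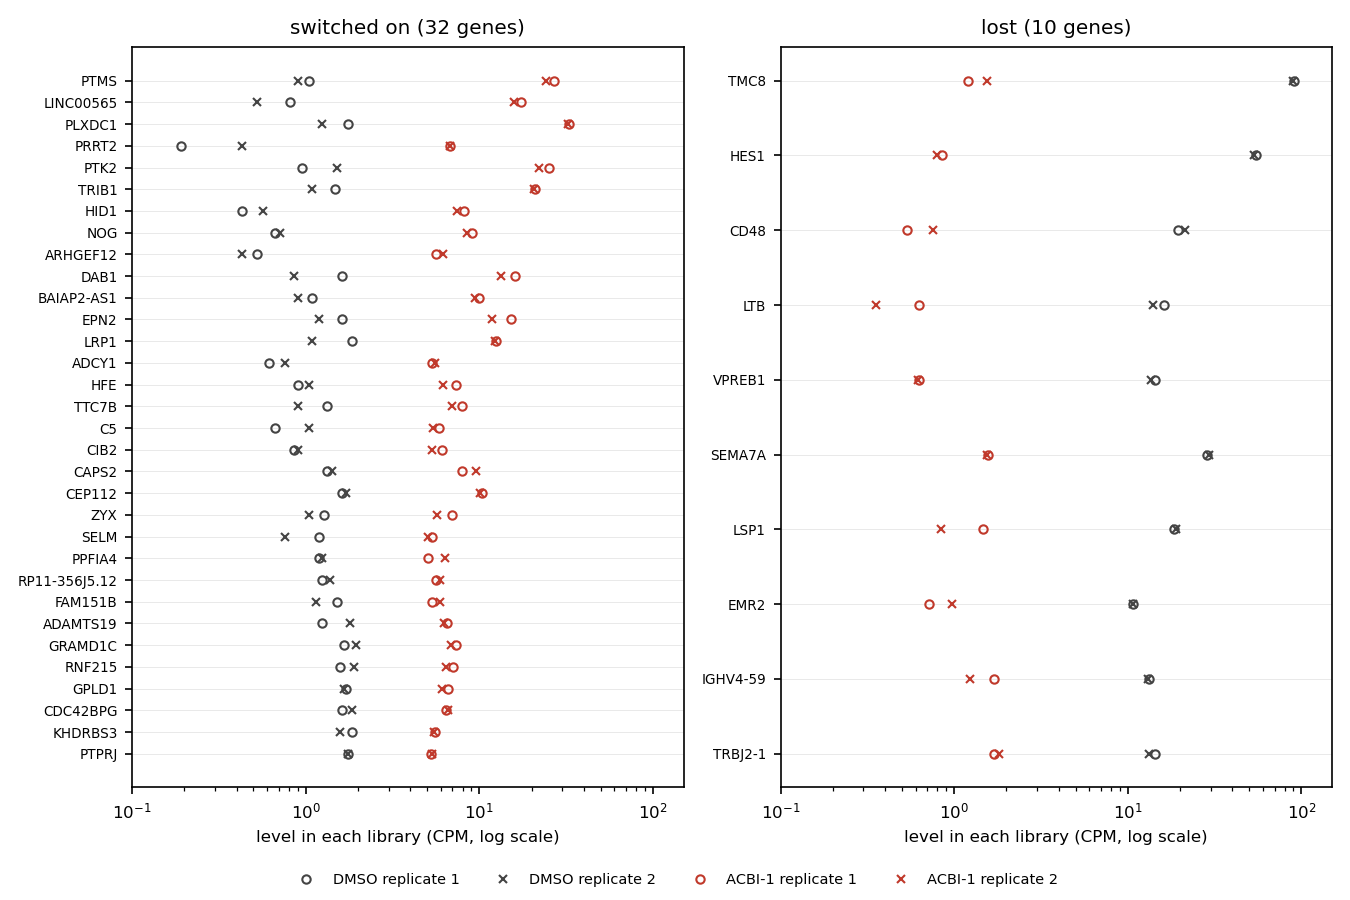
Level of each switched-on gene (left) and each lost gene (right) in the 4 MOLT-4 libraries, in CPM on a log scale, with DMSO in grey, ACBI-1 in red, circles for replicate 1 and crosses for replicate 2. Genes are ordered by log2 fold change with the largest at the top, from 4.71 for PTMS and -6.03 for TMC8.

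The limits are arbitrary, and genes lie close to them on both sides. PPFIA4, SELM and PTPRJ were just inside the 5 CPM limit, with a lower ACBI-1 library at 5.04, 5.05 and 5.26 CPM. FAM63A, RP11-95P2.1 and GPR137C were just outside, at 4.96, 4.92 and 4.78 CPM. STX3, POU6F1 and HABP4 missed the 2 CPM limit, with a higher DMSO library at 2.04, 2.04 and 2.09 CPM. Genes on the opposite strand also overlap some of the set, and whether counting used the strand is not given in the sources used here. For 9 of the 32 a gene on the opposite strand held over 10% of the gene's own counts in a group. STAT6 held 8013% of the counts of LRP1 with DMSO and 715% with ACBI-1, IDH3A 6765% and 649% of those of CIB2, and ALDH5A1 8304% and 1645% of those of GPLD1. For PRRT2 the share of AC009133.14 was 1362% and 96.1%, for RNF215 that of CCDC157 was 242% and 62.7%, and for ZYX that of EPHA1 was 40.8% and 0.704%. Reads of these pairs cannot be told apart here. The shares were 180.4% and 54.2% for FAM151B, 20.6% and 3.33% for PLXDC1 and 10.9% and 19.9% for ADAMTS19.

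Genes lost were defined as called lower, over 10 CPM in both DMSO libraries and under 2 CPM in both ACBI-1 libraries. There were 10 (0.0684% of those tested), 8 protein-coding genes, several of them known from lymphocytes, and 2 antigen receptor segments. Their log2 fold changes ran from -6.03 to -2.96, with adjusted p-values up to 4.57e-21 (edgeR). Transcription factor HES1, a repressor that NOTCH signalling switches on, was at 54.7 and 53.0 CPM with DMSO and 0.847 and 0.797 CPM with ACBI-1. The controls were about 65.1-fold higher (log2 fold change -6.02, SE 0.121). TMC8, an endoplasmic reticulum protein also called EVER2, stood at 91.0 and 89.7 CPM with DMSO and 1.20 and 1.55 CPM with ACBI-1. On the opposite strand TMC6 had 58.2% as many counts as TMC8 with DMSO and 448% with ACBI-1, and TMC6 itself fell from 51.5 and 53.7 to 6.07 and 6.29 CPM.

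The other 8 lost genes are given in turn. CD48, a ligand of the SLAM-family receptor CD244, measured 19.6 and 21.2 CPM with DMSO and 0.535 and 0.753 CPM with ACBI-1 (log2 fold change -4.97). LTB, lymphotoxin beta, a TNF-family ligand needed for lymphoid organs, was at 16.1 and 14.1 CPM with DMSO and 0.624 and 0.354 CPM with ACBI-1 (log2 fold change -4.93). SEMA7A, a GPI-anchored semaphorin, was at 28.6 and 29.2 CPM with DMSO and 1.56 and 1.55 CPM with ACBI-1. The limits that chose the lost genes set the groups apart. For CD48, LTB and SEMA7A all ACBI-1 values were under the lowest DMSO value of the same gene by more than 10-fold. VPREB1, which forms the surrogate light chain of pre-B cells together with IGLL1, went from 14.2 and 13.6 to 0.624 and 0.620 CPM. LSP1, which binds F-actin in leukocytes, went from 18.4 and 19.0 to 1.47 and 0.842 CPM. EMR2, an adhesion G-protein-coupled receptor, was at 10.8 and 10.7 CPM with DMSO and 0.714 and 0.975 CPM with ACBI-1, with ZNF333 on the opposite strand at 104% and 2176% of its counts. IGHV4-59, a variable segment of the immunoglobulin heavy chain, went from 13.2 and 13.0 to 1.69 and 1.24 CPM, and TRBJ2-1, a joining segment of the T-cell receptor beta chain, from 14.2 and 13.2 to 1.69 and 1.82 CPM. Just outside the limits, C19orf77, RASSF2 and CCR9 kept 2.31, 2.62 and 2.56 CPM with ACBI-1, and ALDH3B2, LST1 and DOCK5 began at 9.85, 9.47 and 9.54 CPM.

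The bases before the start are printed for 3 of these genes. RefSeq promoters on GRCh38.p14 were found for 18 of the 32 switched-on genes, 5 of the 10 lost genes and 9822 of the 14618 genes tested. With so few matched, a comparison of base content or motifs over the sets is void, and no result of one is given. The first sequence is the 250 bases before the start of HES1 (chr3:194135898-194136147, plus strand), shown since HES1 is a textbook target of NOTCH and its DNA-binding partner RBPJ. The letters TGGGAA, the core to which RBPJ binds, were searched on both strands, and capitals mark the 2 matches, 84 and 70 bases before the start. The same letters occur in 19.2% of the 9822 promoters, so a match alone is common. The next 2 sequences show CpG dinucleotides in capitals, for the lost gene CD48 (chr1:160711823-160712072, minus strand, 4 CpG), and the switched-on gene ARHGEF12 (chr11:120336163-120336412, plus strand, 42 CpG). They show how far apart single promoters lie and do not stand for the sets: switched-on GRAMD1C and CEP112 had 1 CpG each, lost HES1 had 18 and SEMA7A 17, and the median over the 9822 promoters was 21. All run 5′ to 3′, and a match is a description of the letters and not a bound site.
HES1: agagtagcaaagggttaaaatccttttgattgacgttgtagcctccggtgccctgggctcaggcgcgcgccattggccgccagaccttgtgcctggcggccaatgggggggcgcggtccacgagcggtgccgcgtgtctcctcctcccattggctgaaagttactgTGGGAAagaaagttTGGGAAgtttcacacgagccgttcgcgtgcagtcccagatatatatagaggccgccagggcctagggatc
CD48: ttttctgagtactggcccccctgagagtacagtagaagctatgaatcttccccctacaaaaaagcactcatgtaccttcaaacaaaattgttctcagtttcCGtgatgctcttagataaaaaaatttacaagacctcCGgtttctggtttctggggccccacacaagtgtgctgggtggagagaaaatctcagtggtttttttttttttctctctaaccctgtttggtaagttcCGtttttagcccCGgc
ARHGEF12: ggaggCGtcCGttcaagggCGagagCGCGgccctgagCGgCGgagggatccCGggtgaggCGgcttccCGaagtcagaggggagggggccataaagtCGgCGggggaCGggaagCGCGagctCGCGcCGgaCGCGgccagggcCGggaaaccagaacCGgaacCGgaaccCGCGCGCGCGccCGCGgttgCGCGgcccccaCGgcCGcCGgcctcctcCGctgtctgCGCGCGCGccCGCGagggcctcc

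DND-41 was measured in the same study, and its levels played no part in choosing these genes. Its 4 libraries, 2 labelled DMSO and 2 labelled ACBI-1, were read without regard to treatment. Of the 32 genes switched on in MOLT-4, 10 (31.2%) were over 5 CPM in all 4 DND-41 libraries, against 132 of the 3117 genes (4.23%) under 2 CPM with DMSO in MOLT-4. PTMS ranged from 21.0 to 30.1 CPM there, GRAMD1C from 13.8 to 24.6, RNF215 from 14.1 to 24.8 and ZYX from 12.4 to 24.4. The tables of both lines were scaled separately, so a level in one is only roughly comparable with a level in the other. The 3117 genes were also not matched to the 32 in level. Of the 3117, 903 had passed the low-count filter only through ACBI-1, against 3 of the 32. Another 13 of the 32 (40.6%) were under 2 CPM in all 4 DND-41 libraries, against 69.5% of the same 3117 genes. PTK2, ADAMTS19 and KHDRBS3 had 0 counts in each, which allows up to 0.148 CPM in the shallowest. NOG ranged from 0.0983 to 0.525 CPM, HID1 from 0.0983 to 0.887 and PRRT2 from 0.754 to 1.14. Of the lost genes, LTB, TMC8, SEMA7A, HES1 and LSP1 (5 of 10) were over 10 CPM in all 4, against 92.0% of the genes over 10 CPM with DMSO in MOLT-4. Those genes were not matched in level either, since no lost gene had a mean above 90.3 CPM with DMSO in MOLT-4 and many of them did. In DND-41 LTB was at 231 to 314 CPM and SEMA7A at 69.5 to 78.3 CPM, while VPREB1 ranged from 0 to 0.445 CPM. Several ranges were wide, such as 0.889 to 24.1 CPM for PLXDC1 and 32.8 to 157 CPM for TMC8.

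**Figure D3:**
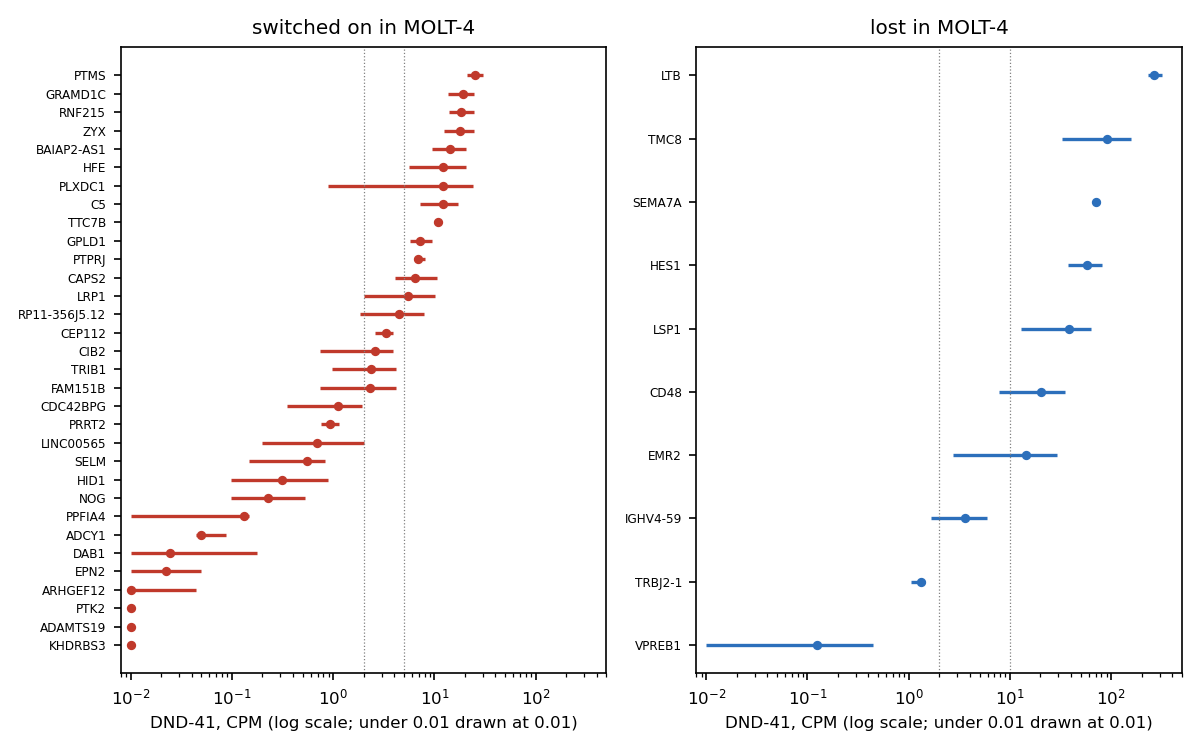
Levels in the 4 DND-41 libraries of the genes switched on (left) and lost (right) in MOLT-4, in CPM on a log scale, with the median as a point and the range as a line. Dotted lines mark 2 and 5 CPM on the left and 2 and 10 CPM on the right, and PTMS and LTB have the highest medians.

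A looser definition, chosen after the data were seen, took any change of at least 4-fold from the same starting levels. It gave 150 genes from under 2 CPM, 115 of them protein-coding, with a median ACBI-1 level of 1.37 CPM, so most stayed low. Of the 150, 106 had passed the low-count filter only through the ACBI-1 libraries. RGS12, a regulator of G-protein signalling, SDC3, a heparan sulphate proteoglycan, and SGSH, a lysosomal sulphatase, are 3 of the 150, picked after their values were seen. RGS12 stood at 0.475 and 0.570 CPM with DMSO and 4.19 and 5.67 CPM with ACBI-1, and SDC3 went from 0.760 and 0.712 to 5.35 and 4.43 CPM. SGSH went from 0.380 and 0.475 to 4.68 and 3.15 CPM. From over 10 CPM, 82 genes fell at least 4-fold, 73 of them protein-coding, with a median of 56.4 CPM with DMSO and 7.80 CPM with ACBI-1. Among them, again picked after their values were seen, were IGLL1, the partner of VPREB1 in the surrogate light chain, at 259 and 268 CPM with DMSO and 38.5 and 38.5 CPM with ACBI-1 and the kinase JAK3 at 58.0 and 57.4 CPM with DMSO and 8.65 and 8.33 CPM with ACBI-1. GNA15, a G-protein alpha subunit of blood cells, went from 170.1 and 176 to 28.2 and 26.9 CPM, and the tetraspanin CD82 from 112 and 105 to 15.4 and 17.8 CPM.

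Some genes that changed at least 2-fold were next to one another in chromosome order, counted among tested genes only. Of 14195 tested genes placed in the order of GENCODE 29, 1542 changed at least 2-fold, and adjacent pairs of such genes went the same way in 200 cases and opposite ways in 68. They formed 150 runs of neighbours with 1 direction, of which 29 held 3 or more genes. How many pairs and runs the same number of genes would form in a random order was not computed. The counts therefore do not show that changed genes cluster. Overlapping transcripts and shared reads can enter such runs. HES1 on chromosome 3 lay beside 3 genes that also fell: RP11-513G11.4 went from 7.84 and 7.41 to 0.580 and 0.753 CPM, LINC00887 from 5.41 and 6.03 to 0.178 and 0.310 CPM and GP5, a platelet glycoprotein, from 3.51 and 3.80 to 0.223 and 0.177 CPM. The next genes, OPA1 and ATP13A3 on either side, had log2 fold changes of -0.12 and -0.21. On chromosome 13, LINC00565 lay between LINC00452, at 0.0950 and 0.0475 CPM with DMSO and 4.37 and 3.90 CPM with ACBI-1, and RASA3, a GTPase-activating protein of RAS and RAP, at 86.8 and 92.2 CPM with DMSO and 259 and 263 CPM with ACBI-1. LINC00452 had 3 or fewer counts in each DMSO library, so no fold is given for it. Beyond RASA3-IT1 (1.06), the next gene CDC16 was at 0.13.

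CD48 on chromosome 1 lay between CD84 and CD244, both of the SLAM family of lymphocyte receptors, which fell with it. CD84 went from 52.2 and 56.5 to 25.4 and 24.2 CPM and CD244 from 2.04 and 2.04 to 0.134 and 0.0443 CPM. Beyond CD84, SLAMF6 of the same family was called higher (log2 fold change 0.51), and beyond CD244, F11R was not called (-0.17). LTB on chromosome 6 was followed by LST1, from 9.59 and 9.35 to 0.892 and 0.576 CPM, and AIF1, from 158 and 157 to 82.6 and 69.5 CPM, both genes of leukocytes. PLXDC1 on chromosome 17 rose with its neighbour CTD-2206N4.4 (1.80), which overlaps it on the opposite strand. The longest run held 15 genes on chromosome 7, 13 segments of the T-cell receptor beta locus and then EPHB6 and TRPV6, all lower, with log2 fold changes from -3.09 to -1.13. All 18 T-cell receptor segments tested in the genome were called lower, 17 at least 2-fold, and their reads can be shared between similar segments. At the immunoglobulin heavy chain locus of chromosome 14 the direction was mixed: a run of 6 genes from IGHV1-58 to IGHV1-69 fell, and a run of 5 that began with IGHV1-3 rose.

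**Figure D4:**
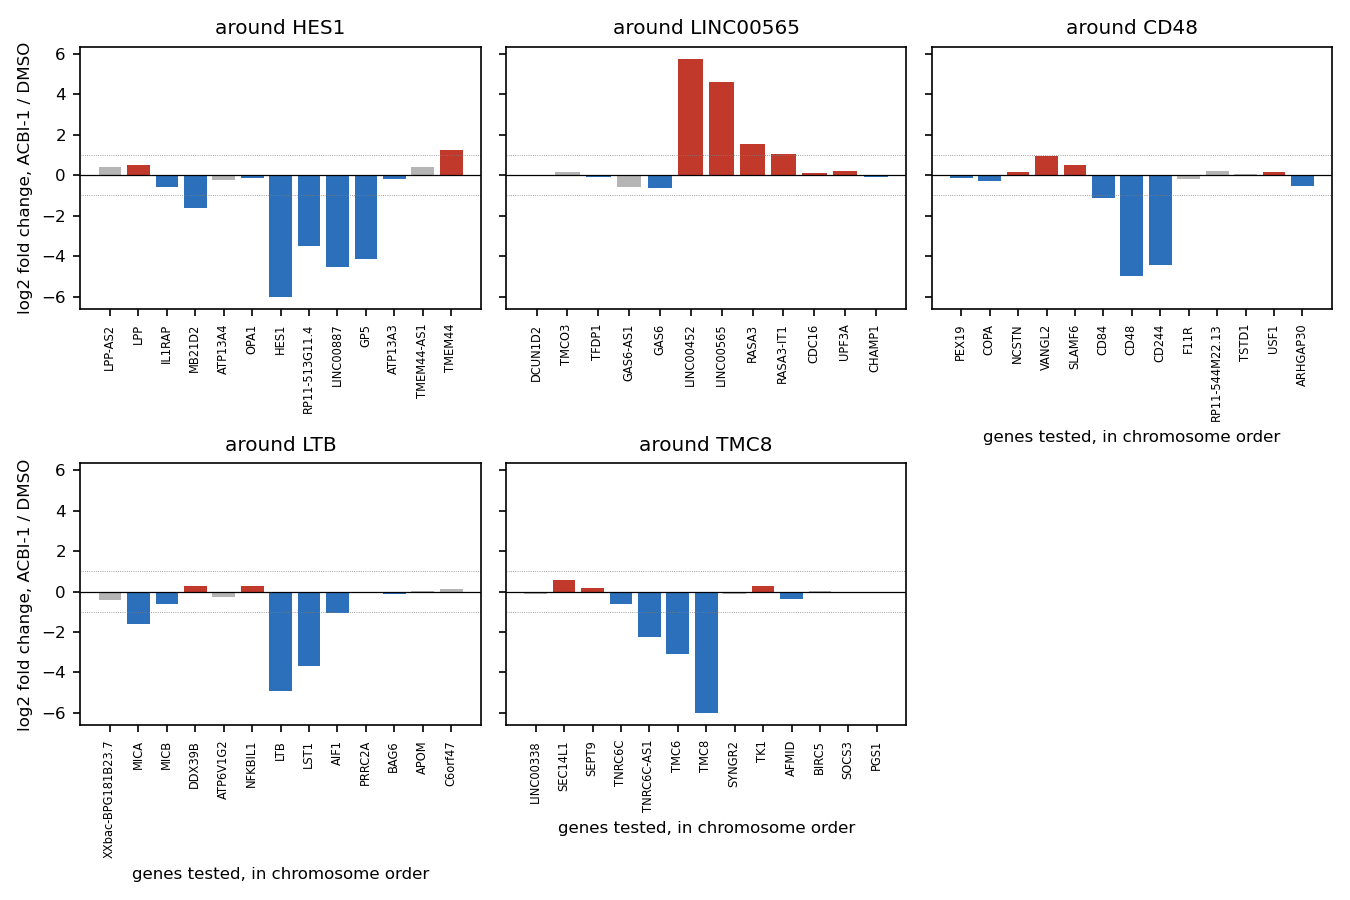
Log2 fold change (ACBI-1 over DMSO) of up to 6 tested genes on either side of 5 genes, in chromosome order, with calls higher in red, calls lower in blue and genes not called in grey. Dotted lines mark 2-fold, and each of HES1, LINC00565, CD48, LTB and TMC8 has 2 or 3 adjoining genes that changed with it, while MB21D2 and MICA fell from a greater distance.

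Functions were then read from 31 lists and from families of genes, each set beside the 28.2% of all genes called higher and the 30.2% called lower. Actin cytoskeleton genes leaned lower. Of 51 actin-binding and myosin genes 35 fell and 11 rose, with a median log2 fold change of -0.21 (all genes 0.0087), and 27 fell and 14 rose under total-count scaling. CORO1A, the coronin of leukocytes, went from 385 and 378 to 87.4 and 86.9 CPM and FLNA, filamin A, from 908 and 874 to 278 and 268 CPM. FMNL1, a formin of leukocytes, went from 384 and 381 to 147 and 136 CPM. CTTN, cortactin, was the opposite, from 2.71 and 3.04 to 33.8 and 34.7 CPM. ARHGEF1, which activates RHOA in leukocytes, went from 139 and 139 to 32.9 and 31.6 CPM (log2 fold change -2.10, SE 0.0497). VAV1, the RAC exchange factor below the T-cell receptor, went from 186 and 177 to 62.9 and 65.3 CPM, and RAC2, the haematopoietic RAC, from 153 and 144 to 63.6 and 63.2 CPM. ARHGEF2 fell too (-1.47).

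Protein tyrosine phosphatases changed in 23 of 26 cases, 14 higher and 9 lower. The family was taken by symbol, so PTPRCAP counts among the 9. PTPRCAP, a partner of the leukocyte phosphatase CD45, went from 163 and 165 to 22.0 and 19.5 CPM (log2 fold change -2.98), and PTPN3 from 171 and 173 to 39.6 and 38.5 CPM. PTPN6, the phosphatase SHP-1 that restrains lymphocyte signals, went from 41.1 and 43.0 to 17.8 and 18.8 CPM. PTPRF, a receptor of the LAR type found mainly outside blood, rose from 3.28 and 3.61 to 18.3 and 18.5 CPM.

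Lysosomal genes were among the lists that leaned higher. Of 34 lysosomal proteins 22 rose and 7 fell (median 0.34), and their summed level went from 2906 and 2901 CPM to 4350 and 4201 CPM. PSAP, the precursor of the saposins that help degrade sphingolipids, had the largest gain in CPM of all genes by the naming rule, from 1285 and 1261 to 2522 and 2443 CPM (log2 fold change 0.96, SE 0.0355). SCARB2, a membrane protein that carries glucocerebrosidase to lysosomes, went from 15.8 and 16.4 to 60.2 and 59.0 CPM. The proteases CTSC (-0.96) and CTSH (-1.10) fell. Of 35 autophagy genes 13 rose, 6 fell and 16 were not called (20 and 4 under total-count scaling), with SESN1, a sestrin that dampens mTORC1, from 16.0 and 16.0 to 27.0 and 27.7 CPM. Among sphingolipid enzymes 11 of 37 rose and 11 fell (14 and 9 under total-count scaling), and S1PR1, the sphingosine 1-phosphate receptor that lets T cells leave lymph nodes, was named from that list: it went from 18.2 and 17.8 to 39.4 and 36.5 CPM. ASAH1, acid ceramidase, rose by a log2 fold change of 0.71.

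Folding in the endoplasmic reticulum leaned lower. Of 32 genes of the unfolded protein response and ER folding 23 fell, 3 rose and 6 were not called (median -0.37), and the summed level went from 6756 and 6682 CPM to 4762 and 4691 CPM. HSPA5, the chaperone BiP, went from 576 and 549.8 to 176 and 169 CPM (log2 fold change -1.71, SE 0.0375). XBP1, the transcription factor of this response, went from 120.3 and 113 to 29.2 and 27.4 CPM. HSP90B1 (-1.09) and calnexin, CANX (-1.08), also fell. Of 33 proteasome subunits 25 fell and 0 rose, with a median of -0.16 and none at 2-fold. PSMA5 went from 142 and 145 to 79.0 and 86.3 CPM. With scaling by total counts 12 of them fell and 3 rose. Of 44 translation factors 30 fell and 6 rose (median -0.29), or 26 and 11 under total-count scaling, EIF4G1, the scaffold of cap-dependent initiation, from 804 and 793 to 490.1 and 469 CPM and EIF6 from 120.1 and 120.2 to 67.8 and 70.6 CPM. Mitochondrial import translocases had 17 of 23 lower and 1 higher (median -0.37), with TOMM40, the import pore, from 297 and 291 to 176 and 173 CPM.

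**Figure D5:**
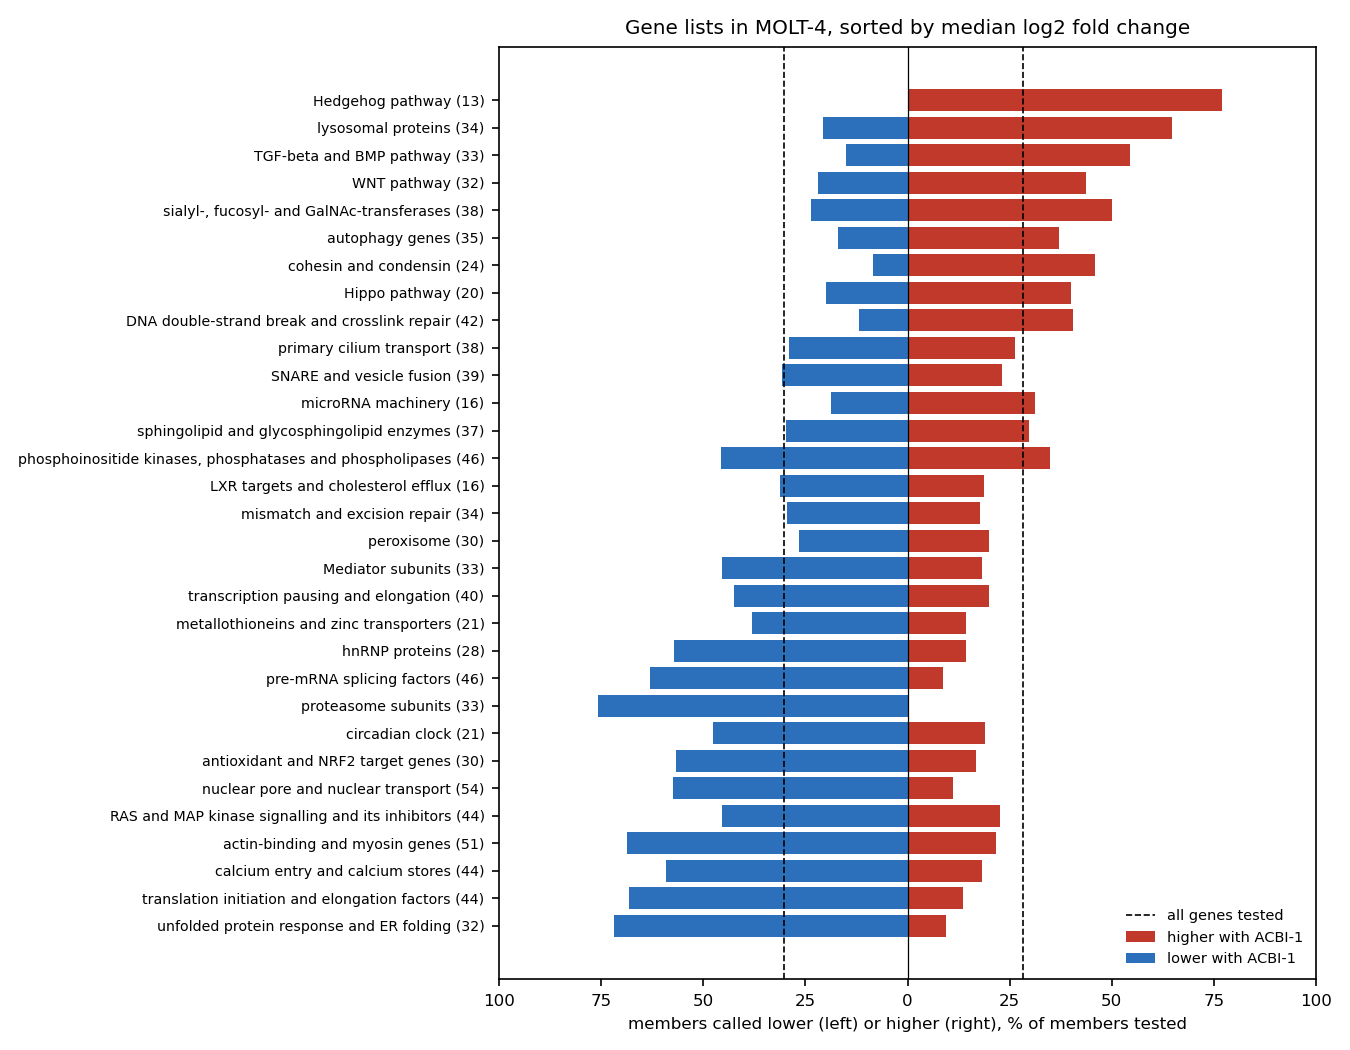
Share of the tested members of each of 31 gene lists that was called lower (blue, left) or higher (red, right) with ACBI-1, in percent, with the number tested in brackets and lists sorted by median log2 fold change. Dashed lines mark 30.2% lower and 28.2% higher over all 14618 genes, and the unfolded protein response list (23 of 32 lower) and the Hedgehog list (10 of 13 higher) have the lowest and the highest medians.

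RNA processing and transport lists moved by small amounts. Of 46 splicing factors 29 fell and 4 rose (median -0.16), and of 54 nuclear pore and transport genes 31 fell and 6 rose (median -0.17), 0 at least 2-fold in either. With scaling by total counts the splicing list had 12 higher and 17 lower and the nuclear pore list 15 and 24. The medians of the hnRNP (-0.10), Mediator (-0.067) and transcription elongation (-0.071) lists changed sign under that scaling, so no direction is given for them. AFF1, a scaffold of elongation complexes, rose from 139 and 144 to 252 and 241 CPM, and AGO4, an Argonaute of the microRNA machinery, from 25.3 and 24.1 to 48.9 and 51.3 CPM. TNRC6C, a partner of Argonautes, fell (-0.60). Of 42 genes of double-strand break and crosslink repair 17 rose and 5 fell (median 0.071), or 24 and 2 under total-count scaling, with FANCC from 22.9 and 22.2 to 42.7 and 42.6 CPM. Of 24 cohesin and condensin genes 11 rose and 2 fell (median 0.075), 0 of them 2-fold, and 21 rose and 0 fell under total-count scaling.

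Calcium genes leaned lower. Of 44 genes of calcium entry and stores 26 fell and 8 rose, 9 and 3 at least 2-fold (median -0.27), and 22 fell and 12 rose under total-count scaling. ATP2A3, the calcium pump SERCA3, went from 1152 and 1124 to 394 and 388 CPM, ORAI1, the pore of store-operated entry, from 107 and 100.4 to 45.8 and 45.2 CPM and TRPM2, a cation channel, from 59.8 and 56.7 to 14.3 and 13.3 CPM. CAMK4, a calcium-dependent kinase of thymocytes, fell by 1.45 on the log2 scale. Of 44 RAS and MAP kinase genes 20 fell and 10 rose, but 17 and 15 under total-count scaling, so no direction is given. RASGRP2, an exchange factor of RAP1, went from 48.6 and 46.4 to 13.2 and 11.3 CPM and RASAL3, a RAS GTPase-activating protein of T cells, from 36.7 and 41.1 to 9.41 and 9.35 CPM. Of 21 interleukin receptors 10 fell, 3 rose and 8 were not called, and 8 fell and 5 rose under total-count scaling. IL2RG, the common gamma chain, which signals through JAK3, went from 329 and 328 to 119.9 and 116 CPM and IL12RB1 from 20.3 ± 0.331 to 4.91 ± 0.117 CPM (SD, n = 2). The phosphoinositide list had 16 of 46 higher and 21 lower, with a median (-0.041) that changed sign under total-count scaling (20 higher and 12 lower). PLCB2 fell from 19.4 and 19.7 to 8.16 and 7.31 CPM.

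Developmental pathways had more genes higher than lower. These lists were not matched for start level, and over all tested genes the median log2 fold change varied with it. That median was 0.34 under 2 CPM in both DMSO libraries, 0.12 between and -0.058 over 10 CPM in both. Of 33 TGF-beta and BMP genes 18 rose and 5 fell, 9 and 2 at least 2-fold (median 0.29). ID3, an inhibitor of E proteins, went from 36.2 and 38.6 to 159 and 160.2 CPM (log2 fold change 2.09, SE 0.0483). LTBP1, which binds latent TGF-beta, went from 10.9 and 10.5 to 31.2 and 32.3 CPM, and NOG is described above. GDF11, a ligand of the family, fell from 27.9 and 25.5 to 11.4 and 11.7 CPM. Of 13 Hedgehog genes 10 rose and 0 fell (median 0.62), with GLI3, a transcription factor of the pathway, from 5.03 and 5.08 to 11.7 and 11.2 CPM and HHAT, which palmitoylates the ligands, from 3.94 and 3.99 to 8.88 and 8.64 CPM. Of 32 WNT genes 14 rose and 7 fell (median 0.13), while the summed level of all 55 genes listed was 4428 and 4318 CPM with DMSO and 4153 and 4026 CPM with ACBI-1. TCF7L2, a factor at WNT targets, rose from 19.4 and 18.8 to 34.5 and 34.3 CPM, while NKD2, an inhibitor of the pathway, fell from 79.6 and 76.6 to 40.7 and 35.4 CPM. Of 20 Hippo genes 8 rose and 4 fell.

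Glycosylation and vesicle genes split. Of 38 sialyl-, fucosyl- and GalNAc-transferases 19 rose and 9 fell. GALNT10, which starts mucin-type O-glycans, went from 18.1 and 16.6 to 43.1 and 41.9 CPM and GALNT7 from 68.5 and 69.6 to 36.7 and 36.6 CPM. GCNT1, which branches such glycans, went from 7.69 and 7.64 to 44.2 and 44.3 CPM, with PRUNE2 on the opposite strand at 81.7% and 43.8% of its counts. GALNT6 went from 150.2 and 145 to 44.7 and 41.6 CPM, with SLC4A8 at 19.2% and 38.8%. Among 39 SNARE and vesicle fusion genes 9 rose and 12 fell, which turned to 18 and 8 under total-count scaling. SYT11, a synaptotagmin, rose from 3.89 and 3.94 to 37.7 and 34.7 CPM (log2 fold change 3.21, SE 0.0994) and UNC13D, which primes cytotoxic granules, fell from 339 and 346 to 169.6 and 166 CPM. Of the 14 neuronal markers 4 were tested, 2 called higher and 2 lower. SYP, synaptophysin, rose from 3.37 and 2.94 to 17.2 and 18.2 CPM, and NEFM from 0.285 and 0.142 to 0.669 and 0.620 CPM, a call lost with DESeq2. INA, a neurofilament protein, fell from 14.6 and 15.6 to 3.12 and 3.68 CPM. SYT1, another synaptotagmin, fell from 1.57 and 2.42 to 0.134 and 0.177 CPM (log2 fold change -3.63). SNAP25, STMN2, MAP2, GAP43 and DCX had no count. Of 217 solute carriers 71 were higher and 72 lower, or 94 and 56 under total-count scaling, with SLC17A9, a vesicular nucleotide transporter, from 63.5 and 60.1 to 9.72 and 7.93 CPM and SLC12A7 from 109 and 109 to 40.5 and 39.4 CPM.

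In further families the share of large changes varied. Of 32 potassium channels 6 were at least 2-fold higher and 5 lower, and of 35 orphan and adhesion G-protein-coupled receptors 4 and 6, beside the 6.02% and 4.82% of all genes. Summed levels with DMSO were 264 and 272 CPM for the channels and 515 and 515 CPM for the receptors. Large changes were commoner at low start levels. At least 2-fold calls made up 25.3% of genes under 2 CPM with DMSO, 16.2% of those between and 4.17% of those over 10 CPM. The first share is raised by the low-count filter, which 903 of those 3117 genes passed only through ACBI-1. Of the 2214 others, 252 were called at least 2-fold higher and 201 at least 2-fold lower. The families were not matched for level. Kinesins had 19 of 32 higher and 5 lower, but KIF21B, the best called of them, fell from 125 and 119 to 52.1 and 48.6 CPM. F-box proteins had 24 of 54 higher and 10 lower (31 and 3 under total-count scaling), and TBC1D2B, an inhibitor of RAB GTPases, rose from 60.4 and 59.4 to 159.8 and 156 CPM. Adenylyl and guanylyl cyclases had 5 of 7 higher and 0 lower, with ADCY1 the largest. That family was taken by symbol, so the 5 include the pseudogene ADCY10P1 (log2 fold change 0.83). PDE4D, which degrades cyclic AMP, rose from 18.7 and 16.1 to 40.2 and 45.7 CPM. Among antioxidant genes 17 of 30 fell and 5 rose (11 and 9 under total-count scaling), PRDX2, a peroxiredoxin, from 242 and 239 to 93.2 and 90.6 CPM. Of 21 clock genes 10 fell and 4 rose, or 5 and 6 under total-count scaling, with NR1D2 from 28.5 and 28.1 to 14.1 and 13.0 CPM. ABCA1, the cholesterol exporter, fell from 27.2 and 27.6 to 5.62 and 7.09 CPM and ABCG1 rose from 146 and 149 to 249 and 254 CPM, so these exporters of the LXR list went opposite ways. MT1G, a metallothionein, went from 3.28 and 3.61 to 0.178 and 0.133 CPM.

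The largest gains and losses in CPM, which is not corrected for gene length, were also taken. Among the 10 largest gains, C22orf29 went from 103 and 98.8 to 389.7 and 384 CPM, CD38, an ectoenzyme of activated lymphocytes, from 70.0 and 65.4 to 249 and 243 CPM and FADS2, a fatty acid desaturase, from 249.9 and 245 to 452 and 439 CPM. MALAT1, ITM2A, CD47, FAT1 and BUB1 rose by log2 fold changes of 0.67 to 0.75. Among the 10 largest losses, TRBC2, the constant part of the T-cell receptor beta chain, went from 3929 and 3878 to 469.5 and 446 CPM (log2 fold change -3.09) and TRBV20-1, a variable segment of the same locus, from 1038 and 1047 to 129.96 and 132 CPM. CDK6, a kinase of the G1 phase, went from 1661 and 1614 to 792 and 818 CPM. The chaperones HSP90AB1 (-0.72) and HSPA8 (-0.62) and the glycolytic enzyme GAPDH (-0.73) fell by less.

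Non-coding RNAs were called at least 2-fold higher in 196 of 1691 cases (11.6%) and lower in 91 (5.38%), beside 5.13% and 4.68% of 11684 protein-coding genes. The start levels differed, with 64.8% of the non-coding and 11.4% of the protein-coding genes under 2 CPM in both DMSO libraries. Of the genes under 2 CPM that passed the filter on their DMSO libraries, 62 of 756 non-coding (8.20%) and 164 of 969 protein-coding genes (16.9%) were called at least 2-fold higher, so the order of the shares turned. Antisense transcripts by name had 85 of 243 higher and 22 lower. Among those that fell, ERVH48-1, a transcript of an endogenous retrovirus, went from 63.9 and 64.8 to 7.85 and 8.64 CPM, RP11-61O1.1 from 56.7 and 57.7 to 10.5 and 10.5 CPM and KB-208E9.1 from 5.27 and 5.22 to 0.401 and 0.620 CPM. AC002454.1, which lies opposite CDK6, went from 67.2 and 68.3 to 10.6 and 9.04 CPM. ITGB2-AS1, opposite the integrin gene ITGB2, fell from 15.4 and 15.3 to 3.21 and 2.92 CPM, and LINC00977 from 32.3 and 32.0 to 13.2 and 13.8 CPM. MIR155HG, the host of a lymphocyte microRNA, rose from 4.75 and 5.17 to 10.8 and 11.1 CPM. Antisense counts share the limit on strand given above. Among protein-coding genes of the preceding paragraphs, an opposite-strand gene held 67.8% and 35.7% of the counts of FADS2, 17.4% and 4.80% for CTTN, 4.14% and 17.5% for FMNL1 and 11.9% and 21.8% for GDF11.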

How the data were processed

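Per the labels' protocols, strand-specific paired-end libraries of total RNA were sequenced on a DNBSEQ platform. The genome build hg19, STAR 2.5.2a, featureCounts and DESeq2 1.12.4 were used, per the submitters' processing notes. The counting strand, annotation and handling of multiply mapped reads are not given in the sources used here. The deposited count table holds raw counts by Ensembl identifier. The authors also deposited a DESeq2 table with log2 fold changes and standard errors, used here for signs and symbols. Its deposited p-value and adjusted p-value columns gave the number of its calls. Per the file headers the MOLT-4 columns carry the suffix "redo", which is not explained, and 0 columns were left unassigned.

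Counts were tested with edgeR 4.0.16 in R 4.3.3 (TMM, filterByExpr, quasi-likelihood F-test, 2-sided, Benjamini-Hochberg, threshold 0.05) on the 4 MOLT-4 libraries. The filter asks for about 0.46 CPM in 2 libraries. With 2 against 2 libraries an exact permutation test cannot go below p = 0.333, so none was used. On simulated counts for this comparison (14618 genes), 67, 67 and 66 genes were changed 1.5-, 2- and 4-fold. The test recovered 95.5%, 100% and 100% of them, with 13 false calls. The changed genes lay well above the low-count filter and were split evenly between the 2 directions. The simulation thus does not cover genes at low levels or a response in which 58.4% of genes are called. Gene types, gene order and overlaps came from the annotation GENCODE 29, whose coordinates are not printed. Alternatives were total-count scaling, DESeq2 1.42.0, other filters, a test against 1.5-fold, other level limits, a replicate block and leaving out each library.

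The groups of genes and the lists were chosen with earlier results of these data known. Named genes were the 20 largest switched-on and lost protein-coding genes, the 10 largest gains and losses in CPM, 6 non-coding genes per direction, up to 4 members per list or family with the smallest adjusted p and at least 1.5-fold, 3 genes on each side of each limit, and the 3 degraded proteins. The other switched-on genes, neighbours in gene order and members of the 4-fold groups were named after their values were seen. A few genes and gene groups are not reported here.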

Additional observations from a re-analysis of the deposited data

How the results depend on the processing

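Of 276 genes chosen for naming, 214 kept direction and call under every alternative run, and 62 did not. A test against a 1.5-fold change called 1737 genes, 896 higher and 841 lower. DESeq2 called 2394 higher, 564 at least 2-fold, and edgeR without the low-count filter 2560 higher. Stricter limits gave 7 genes switched on (under 1 CPM with DMSO) or 9 (over 10 CPM with ACBI-1) and 5 lost (under 1 CPM) or 3 (over 20 CPM). The 4-fold definitions, added after seeing the data, gave 150 and 82. Leaving out 1 library gave 6888 to 7123 calls, 36 to 42 genes switched on and 10 to 11 lost, with 31 to 32 of the 32 and all 10 of the 10 shared. Signs turned under total-count scaling for PRPF8 (0.0017), SMARCA2 (0.054), HNRNPA2B1 (0.093) and RAD21 (0.11), for RAD21 with a 1 CPM filter (0.0019) and without ACBI-1 replicate 1, and for COL1A1 without ACBI-1 replicate 2. Leaving out 1 library gave -0.0501 to 0.034 for RAD21 and -0.58 to 4.22 for COL1A1. The causes were not tested. With a replicate block 8581 genes were called, 4151 higher and 4430 lower, and 32 and 10 were switched on and lost. The block changed no call of a named gene, and same-numbered libraries did not deviate together (correlation 0.0093 over 2 pairs). Depth limits levels under about 0.14 CPM (3 counts).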
